A study of Mus musculus with 8 samples.

Results

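The genes of blood coagulation and fibrinolysis were followed in poly-A RNA of mouse liver. The set holds 32 genes, listed by name and without serpins, of 35204 gene symbols in the deposited table, and all 32 were measured and tested. Of the 8 libraries, 3 came from liver of untreated wild-type C57BL/6J mice, called controls, and 5 from wild-type C57BL/6J mice, called TAZ-CCl4. The TAZ-CCl4 mice received EF1a-TAZS89A by HTVI, which in this field stands for hydrodynamic tail vein injection, and CCl4, 30 times in all at 3 times a week for 10 weeks. TAZS89A is a form of the transcriptional coactivator TAZ that lacks a serine through which the Hippo pathway keeps it out of the nucleus, and EF1a is a promoter active in most cell types. Hydrodynamic injection delivers DNA mainly to hepatocytes, and only to part of them. CCl4 is a toxin that injures hepatocytes. Control mice received neither the construct nor the injections nor CCl4, so the parts of the treatment cannot be told apart. Age, sex and the number of animals per library are not given in the labels, nor is it said whether the liver pieces held tumour. Each group was a library project of its own, so project and treatment cannot be told apart either.

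Coagulation turns soluble fibrinogen into a fibrin clot through a chain of serine proteases that circulate as inactive precursors. Most of these precursors are made by hepatocytes, and several need a vitamin K-dependent carboxylation to bind membranes. The chain is started by tissue factor on cells outside the bloodstream or by contact factors in plasma, and it is held back by the protein C system and by tissue factor pathway inhibitors. Fibrinolysis removes the clot: the activators tPA and uPA, made by cells of tissues and vessels, cut plasminogen from the liver into plasmin. The 32 genes were therefore read in role groups: 20 factors and regulators of hepatocyte origin, 2 vitamin K cycle enzymes, 8 tissue activators, inhibitors and receptors, and 2 factors made mainly outside hepatocytes.

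Values are normalised counts as deposited, whose library totals were 29819996 to 35055251 for the controls and 12373230 to 14150070 for the TAZ-CCl4 libraries. A fold change below is a difference of mean log2(normalised count + 1), TAZ-CCl4 minus control, tested with limma over 14171 genes with a mean of at least 10 and called at an adjusted p under 0.05. Over all genes tested, the median change was 0.03 log2 units as deposited and 1.26 once every library was scaled to the same total, so directions depend on the scaling and are given relative to it. Wwtr1, which encodes TAZ, stood at 279.9 to 463 in the controls and 4339 to 9021 in the TAZ-CCl4 libraries. Of 12 hepatocyte marker symbols, 11 were in the table, 8 fell and 0 rose as deposited, 2 were lower and 2 higher at equal totals, and 2 were lower and 5 higher after quantile normalisation. Of all tested genes, 29.8% were lower and 32.4% higher as deposited, 6.39% and 76.3% at equal totals, and 29.8% and 27.8% after quantile normalisation. The summed level of the hepatocyte markers was 2712430 to 3125810 in the controls and 1030040 to 1580830 in the TAZ-CCl4 libraries, so both groups carried hepatocyte RNA. In pieces of liver, fewer cells of a type and less RNA per cell cannot be told apart.

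At the deposited scaling most hepatocyte factors fell and most tissue activators rose in the TAZ-CCl4 libraries. Of the 32 genes, 20 fell, 9 rose and 3 did not pass at the deposited scaling, beside 29.8% lower and 32.4% higher among all tested genes. The 2 sides came from different roles: 16 of 20 hepatocyte factors fell and 2 rose, with a median log2 fold change of -1.35, whereas 6 of 8 tissue genes rose and 1 fell, with a median of 1.73. The groups of libraries did not overlap for 20 lower and 9 higher genes of the set, beside 29.4% and 30.7% of all tested genes. At equal library totals 6 genes of the set were lower and 10 higher, beside 6.39% and 76.3% of all tested genes. There the hepatocyte factors had a median of -0.10, with 2 higher and 5 lower, and the tissue genes one of 2.96, with 7 higher and 1 lower. Quantile normalisation gave 6 higher and 8 lower hepatocyte factors (median 0.03) and 5 higher and 2 lower tissue genes (median 1.46), beside 27.8% higher and 29.8% lower among all tested genes. A call in the same direction under all 5 scalings tried (as deposited, equal totals, equal totals with Mup and mitochondrial genes left out, equal upper quartiles, quantile normalisation) was kept by 6 lower and 8 higher genes, beside 6.25% and 23.6% of all tested genes. The lower ones were F7, F10, F11, Klkb1, Proz and Tfpi2. The higher ones were Kng2, Pros1, Plat, Plau, Plaur, Thbd, F2r and F13a1.

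**Figure D1:**
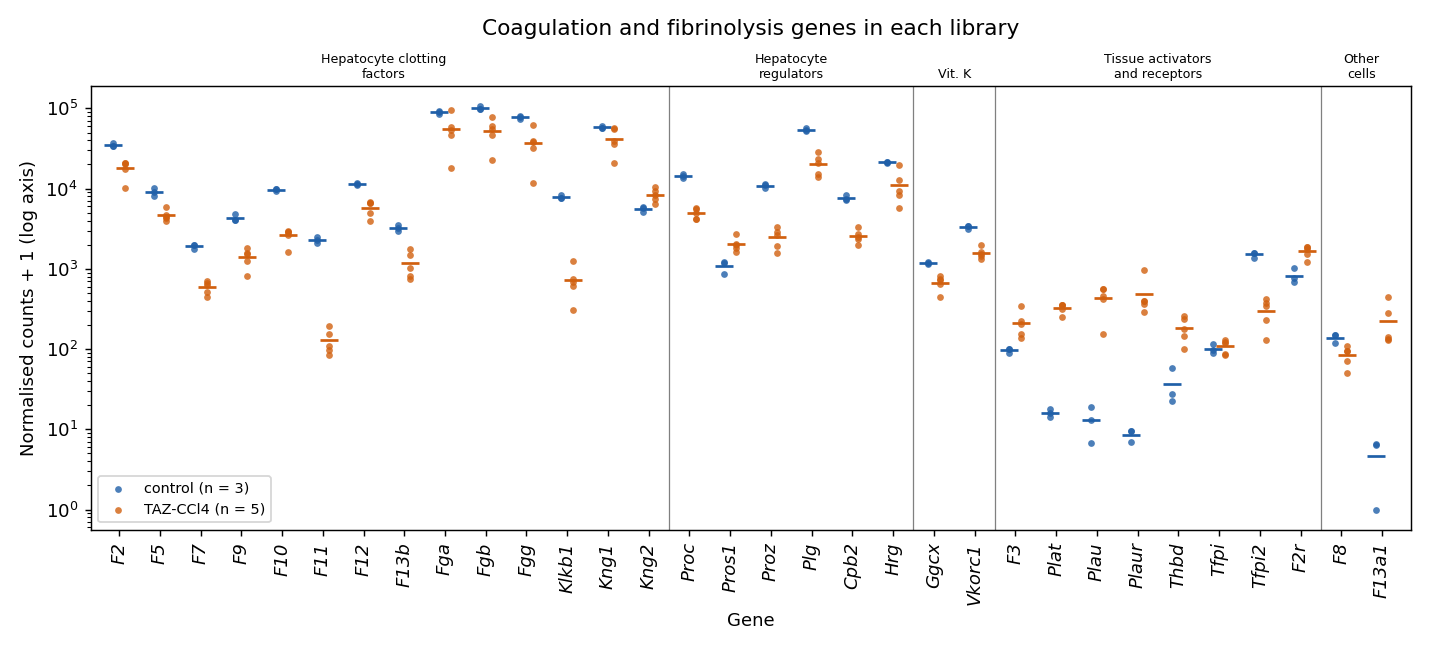
Normalised counts plus 1 (vertical log axis) of the 32 genes (horizontal axis, by role) in 3 control (blue) and 5 TAZ-CCl4 (orange) libraries, with a bar at each group mean. Hepatocyte factors sit mostly lower in orange, and Plat, Plau, Plaur and F13a1 rise from below 20 to over 100.

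Promoters of 26 of the 32 genes were found in the RefSeq table of build GRCm38.p6, and 250 bases before each start were searched on both strands for 4 short motifs. The HNF1 half-site GTTAAT lay in 4 of 17 promoters of hepatocyte factors and 2 of 8 promoters of tissue genes, beside 6.43% of all 32851 promoters. Those 2 tissue promoters both belong to Tfpi2 and overlap, so they share 1 site. For the HNF4 half-site CAAAGT the numbers were 4 and 1, beside 12.6% of all. The AP-1 motif TGANTCA was in 3 and 4, beside 6.75%. The TEAD motif GGAATG was in 5 and 0, beside 12.6%. No promoter was found for Kng1, Proc, Plg, Plat, Plau or Thbd. The 8 tissue promoters thus belong to F3, Plaur, F2r, Tfpi and Tfpi2, most of them to Tfpi and Tfpi2. Several promoters can belong to 1 gene, as with the 3 of Tfpi2, and a match describes letters, not a bound site. The 150 bases before the start are printed for 3 hepatocyte factors with a half-site near the start and for 2 tissue genes with an AP-1 motif, chosen to show the motifs with the gene values known. AP-1 motifs also lay in promoters of Tfpi2, 77 bases before a start, of F2r, at 204 bases, and, farther from the start than the printed bases, of Fgb, Hrg and F2, at 173, 162 and 180 bases, so the motif was found in genes that fell as well as in genes that rose. All are read 5′ to 3′ on the gene's strand, with motif matches in capitals, also where the match is on the other strand.
Fgb, chr3:83049864-83050013 on the minus strand, with an HNF1 half-site 29 bases and a TEAD motif 9 bases before the start: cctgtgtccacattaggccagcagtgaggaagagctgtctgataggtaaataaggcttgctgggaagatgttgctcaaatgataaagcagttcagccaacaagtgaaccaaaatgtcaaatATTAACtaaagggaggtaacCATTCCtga
F9, chrX:59999314-59999463 on the plus strand, with an HNF4 half-site 53 bases before the start: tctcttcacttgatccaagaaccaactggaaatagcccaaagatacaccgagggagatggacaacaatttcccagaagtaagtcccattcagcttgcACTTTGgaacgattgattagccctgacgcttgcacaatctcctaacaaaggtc
Hrg, chr16:22950922-22951071 on the plus strand, with an HNF4 half-site 35 bases before the start: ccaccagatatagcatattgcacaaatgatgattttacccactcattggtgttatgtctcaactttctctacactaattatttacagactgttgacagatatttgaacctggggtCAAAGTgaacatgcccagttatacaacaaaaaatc
F3, chr3:121723387-121723536 on the plus strand, with AP-1 motifs 146 and 135 bases before the start: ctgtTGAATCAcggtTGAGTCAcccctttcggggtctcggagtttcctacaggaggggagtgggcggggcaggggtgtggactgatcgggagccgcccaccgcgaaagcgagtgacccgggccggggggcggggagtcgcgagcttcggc
Plaur, chr7:24462333-24462482 on the plus strand, with an AP-1 motif 69 bases before the start: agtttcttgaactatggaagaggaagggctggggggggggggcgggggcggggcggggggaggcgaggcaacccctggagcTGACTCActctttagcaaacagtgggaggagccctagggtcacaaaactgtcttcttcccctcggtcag

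F11 and Klkb1 showed the largest falls of the set. F11 (mm10 chromosome 8, 45241174 to 45262031) encodes factor XI of the contact pathway. It stood at 2120.4, 2503 and 2309 in control replicates 1 to 3 and at 83.1, 109.6, 196, 96.8 and 153 in TAZ-CCl4 replicates 1 to 5. Every TAZ-CCl4 library was far below every control, a drop of 18.1-fold between the means (log2 fold change -4.24 ± 0.26, SE; limma, adjusted p = 1.00e-06). Klkb1 (chromosome 8, 45266689 to 45294859), the neighbouring gene on the same strand, encodes prekallikrein, the precursor of kallikrein, which activates factor XII. It stood at 7592, 8309.6 and 7604 in control liver, against 302, 606, 747, 1245 and 693 in TAZ-CCl4 liver. The groups were again apart, by 10.9-fold between the means (-3.58 ± 0.35; limma, adjusted p = 1.29e-05), with replicate 4 highest and replicate 1 lowest among the TAZ-CCl4 libraries. Both remained lower at equal totals, by log2 fold changes of -2.99 and -2.33.

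The other contact factors moved less. F12 (chromosome 13, 55417958 to 55426793), for factor XII, which starts the contact pathway, fell from a control mean of 11419 ± 282 (SD, n = 3) to a TAZ-CCl4 mean of 5770.0 ± 1244 (SD, n = 5; log2 fold change -1.01 ± 0.19). The F12 call was lost at equal totals (0.24; limma, adjusted p = 0.260) and after quantile normalisation (0.07; limma, adjusted p = 0.777). Kng1 and Kng2 are the paired mouse kininogen genes, whose products carry prekallikrein and release bradykinin. Kng1 (chromosome 16, 23057865 to 23082078) stood at 57234, 57700.4 and 59647 in control liver, against 36342, 55038, 57325, 21136 and 39366 in TAZ-CCl4 liver and did not pass (-0.56 ± 0.33, 95% interval -1.29 to 0.17; limma, adjusted p = 0.163). After quantile normalisation Kng1 was called as higher (1.33; limma, adjusted p = 0.00201). Its TAZ-CCl4 replicate 3 lay within the control range and the others below it. Kng2 (chromosome 16, 22985854 to 23029482) stood at 5109, 5795 and 5897 and at 8315, 10343, 9414, 6499 and 7353. Every TAZ-CCl4 library was above every control, and Kng2 was called as higher (0.57 ± 0.17; limma, adjusted p = 0.0148), a call lost without control replicate 1 (log2 fold change 0.50; limma, adjusted p = 0.0692). The ratio of Kng2 to Kng1 within a library, which a scaling factor of the library leaves nearly as it is, was 0.0962 ± 0.00604 in control liver (SD, n = 3) and 0.215 ± 0.0567 in TAZ-CCl4 liver (SD, n = 5). The sequences of the paired genes are similar, so their single values are uncertain where reads could be split between them.

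Factors of the common and tissue factor pathways fell at the deposited scaling. F7 (chromosome 8, 13026034 to 13035809), whose product is the partner of tissue factor, stood at 1779, 1996 and 1973 in control liver, against 507, 706, 635, 444 and 657 in TAZ-CCl4 liver. No library of either group reached the other (log2 fold change -1.72 ± 0.16; limma, adjusted p = 1.13e-05). F10 (chromosome 8, 13037308 to 13056676), for factor X, which forms prothrombinase with factor V, stood at 9756, 9433 and 9988 and at 2637, 2917, 2873, 1629 and 2982. Its groups were apart by 3.73-fold (-1.93 ± 0.20), and replicate 4 was the lowest TAZ-CCl4 library. F7, F10 and Proz lie next to each other on chromosome 8 in the same orientation. Of the 3, Proz (chromosome 8, 13060914 to 13076026), for protein Z, the cofactor of an inhibitor of factor Xa, fell furthest, from 11268, 10184 and 11000.1 to 1917, 3316, 2854, 1595 and 2653 (-2.18 ± 0.22; limma, adjusted p = 1.87e-05). All 3 were also lower at equal totals, with log2 fold changes of -0.47, -0.68 and -0.93.

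The genes F9, F2, F5 and F13b did not keep a lower call at equal totals. F9 (chromosome X, 59999464 to 60030759), for the factor IX missing in haemophilia B, stood at 4349 ± 471 and 1405 ± 385 (SD, n = 3 and 5; -1.68 ± 0.23, and -0.42 at equal totals). F2 (chromosome 2, 91625320 to 91636414), for prothrombin, the precursor of thrombin, fell from between 33902 and 37132 to between 10048 and 21130.0 (log2 fold change -1.02 ± 0.26). F5 (chromosome 1, 164151838 to 164220277), for the cofactor of factor Xa, fell from between 8073 and 10238 to between 3979.9 and 5953 (-0.97 ± 0.16). Neither gene had overlapping groups as deposited, yet at equal totals F2 and F5 were at 0.24 and 0.28 and did not pass. After quantile normalisation F2 was called as higher (0.63; limma, adjusted p = 0.0372). F13b (chromosome 1, 139501702 to 139523752), for the carrier subunit of factor XIII, which crosslinks fibrin, fell from between 2935 and 3522 to between 741 and 1771 (-1.55 ± 0.27).

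Fibrinogen genes varied widely among the TAZ-CCl4 libraries, with coefficients of variation of 50.6% for Fga, 38.8% for Fgb and 49.1% for Fgg. Fga, Fgb and Fgg encode the alpha, beta and gamma chains and lie together on chromosome 3, with Fgb (chromosome 3, 83040141 to 83049863) on the opposite strand to Fgg (chromosome 3, 83007724 to 83015049) and Fga (chromosome 3, 83026076 to 83033627). Fga stood at 93225, 91302 and 83922 in control replicates 1 to 3, against 58915, 95047, 54469, 18069 and 46540.3 in TAZ-CCl4 replicates 1 to 5. Replicate 2 was above all controls and replicate 4 was the lowest library, so the groups overlapped and Fga did not pass (-0.90 ± 0.46; limma, adjusted p = 0.112). Fgb, whose printed promoter holds an HNF1 half-site, stood at 107545, 98868 and 99559 and at 59767, 79020.0, 55821, 22724 and 47097 (-1.06 ± 0.38; limma, adjusted p = 0.0333). Fgg stood at 79889, 78109.5 and 74063 and at 38475, 62440.3, 39614, 11807 and 32284 (-1.25 ± 0.45; limma, adjusted p = 0.0329). For both, all TAZ-CCl4 libraries were below the controls. These 2 calls were lost without any single control, without TAZ-CCl4 replicate 5, at equal upper quartiles and without the filter on low values, and Fga was called as lower without replicate 2 (log2 fold change -1.14; limma, adjusted p = 0.0357). After quantile normalisation Fga and Fgb were called as higher (1.16 and 1.09; limma, adjusted p = 0.0339 and 0.0168), and Fgg was at 0.58 and did not pass.

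Ratios among the 3 chains overlapped between the groups while their summed share varied. As a share of the library total, they took 0.801%, 0.893% and 0.864% in the controls and 1.23%, 1.75%, 1.06%, 0.425% and 0.933% in TAZ-CCl4 replicates 1 to 5. Replicate 4 was below the controls in this share and the other 4 were above them. The ratio of Fga to Fgb was 0.878 ± 0.0414 in control liver (SD, n = 3) and 0.990 ± 0.144 in TAZ-CCl4 liver (SD, n = 5), and that of Fgg to Fgb was 0.759 ± 0.0269 in control liver (SD, n = 3) and 0.670 ± 0.0995 in TAZ-CCl4 liver (SD, n = 5), with overlapping groups in both cases. Per kilobase of the longest coding transcript, the control means were 44430.5 for Fgg, 34589.5 for Fga and 26769 for Fgb. The means of the other 29 genes were lower on that scale, with Kng1 next at 25806.5. Among the 3 chains this order held in every control library, with no overlap between neighbours. It rests on the lengths used, 1741 bases for Fgg, 2587 for Fga and 3810 for Fgb. In normalised counts Fgb was the highest of the 3 in every control. The TAZ-CCl4 means per kilobase were 21208 for Fgg and 21109 for Fga, with overlapping libraries, and 13881 for Fgb.

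**Figure D2:**
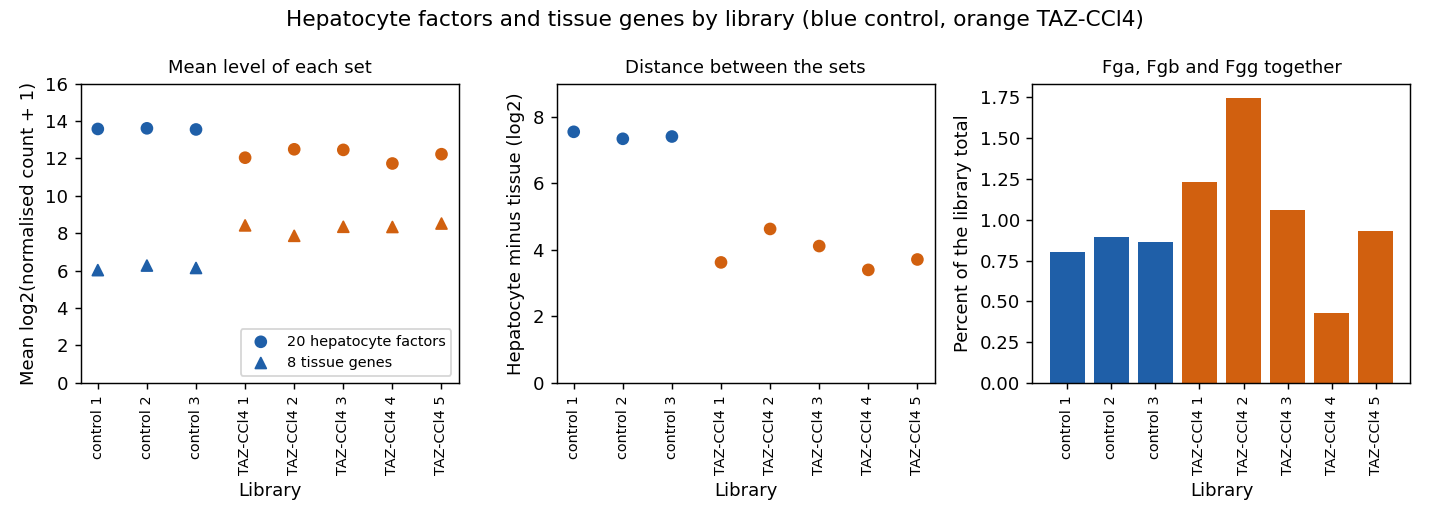
Mean log2 level of the 20 hepatocyte factors and 8 tissue genes (left), their difference (middle) and the summed fibrinogen share of the library total in percent (right) in each of 8 libraries (horizontal axis; blue control, orange TAZ-CCl4). The difference is above 7 in the controls and below 5 in the TAZ-CCl4 libraries, and the fibrinogen share is lowest in TAZ-CCl4 replicate 4.

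Regulators made by hepatocytes fell as deposited, apart from protein S. Plg (chromosome 17, 12378608 to 12419385), for plasminogen, the precursor of plasmin, stood at 53733, 56704 and 51774 in control liver, against 15207, 28845, 23483, 13774 and 20809.7 in TAZ-CCl4 liver. All 5 TAZ-CCl4 values were below the controls (log2 fold change -1.46 ± 0.26; limma, adjusted p = 7.39e-04). Proc (chromosome 18, 32123126 to 32139570), for protein C, the anticoagulant protease that inactivates factors Va and VIIIa, stood at 13392, 14156 and 15093 and at 4134, 4191, 5797, 5525 and 4942. That was the narrowest relative spread of the hepatocyte factors in the TAZ-CCl4 group (-1.54 ± 0.15). Cpb2 (chromosome 14, 75242287 to 75283555), for the carboxypeptidase TAFI, which trims plasminogen-binding ends off fibrin, fell from between 7155 and 8334 to between 1976 and 3348 (-1.59 ± 0.17). Hrg (chromosome 16, 22951072 to 22961656), for a glycoprotein that binds plasminogen and heparin, stood at 21261, 21146 and 21252 and at 8236, 19893, 12841, 5798 and 9451. TAZ-CCl4 replicate 2 came close to the controls. The Hrg call (-1.04 ± 0.33; limma, adjusted p = 0.0195) was lost when any single control was left out, with log2 fold changes of -1.05 to -1.04. At equal totals Plg, Proc, Cpb2 and Hrg were at -0.21, -0.29, -0.34 and 0.21 and did not pass.

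Pros1 (chromosome 16, 62854307 to 62929346), for protein S, the cofactor of activated protein C and also a ligand of TAM receptors, went the other way. It stood at 1184, 1212 and 854 in control liver, against 1639, 2686, 2033, 1794 and 1988 in TAZ-CCl4 liver. The groups did not overlap, and the log2 fold change was 0.90 ± 0.18 as deposited (limma, adjusted p = 0.00148) and 2.15 at equal totals. Of the 7 vitamin K-dependent factors, 6 fell and only Pros1 rose, as deposited, with a median of -1.68 and a range of -2.18 to 0.90, where 29.8% of all tested genes were lower. At equal totals 3 were lower and 1 higher (median -0.42), beside 6.39% and 76.3% of all tested genes. After quantile normalisation 4 were lower and 2 higher (median -1.01), beside 29.8% and 27.8%. The enzymes of the vitamin K cycle were lower as deposited. Ggcx (chromosome 6, 72414308 to 72430712), the carboxylase of these factors, stood at 1219, 1198 and 1139.7 and at 448, 804, 736, 645 and 717 (-0.85 ± 0.18; limma, adjusted p = 0.00217). Vkorc1 (chromosome 7, 127893063 to 127895617), the reductase that warfarin inhibits, stood at 3432, 3136 and 3404 and at 1551, 1329, 1953, 1427 and 1618 (-1.09 ± 0.14; limma, adjusted p = 7.50e-05). The groups did not overlap for either gene. At equal totals these 2 genes were at 0.40 and 0.16 and did not pass.

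The plasminogen activator system rose from low control levels. Plat (chromosome 8, 22757727 to 22782844), for tPA, the fibrin-bound activator, stood at 17.1, 14.9 and 13.1 in control liver, against 249, 314, 349, 356 and 357 in TAZ-CCl4 liver. The 5 values were close to each other and 21.7-fold above the controls by the means (log2 fold change 4.34 ± 0.20; limma, adjusted p = 2.42e-07). Plau (chromosome 14, 20836660 to 20843385), for uPA, the activator that acts at cell surfaces, stood at 5.66, 12.1 and 18 and at 420.3, 154, 453, 559 and 562. Replicate 2 was the lowest of the TAZ-CCl4 libraries and still above all controls (5.05 ± 0.46; limma, adjusted p = 8.38e-06). Plaur (chromosome 7, 24462484 to 24475968), for the uPA receptor, stood at 5.89, 8.45 and 8.41 and at 963, 286, 364, 396 and 401. Its replicate 1 was far above the other TAZ-CCl4 libraries (5.69 ± 0.36; limma, adjusted p = 1.16e-06). With a pseudocount of 10 in place of 1, the log2 fold changes of Plau and Plaur were 4.24 and 4.67, since the fold of a low gene depends on it.

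Tissue factor and the thrombin-facing genes rose less. F3 (chromosome 3, 121723537 to 121735048), for tissue factor, the cell-surface starter of coagulation, stood at 98.5, 88.5 and 99.4 in control liver, against 339, 136, 153, 220.1 and 202 in TAZ-CCl4 liver. Every TAZ-CCl4 library was higher, replicate 1 most (1.06 ± 0.28; limma, adjusted p = 0.00736), but after quantile normalisation F3 was at 0.51 and did not pass (limma, adjusted p = 0.182). Thbd (chromosome 2, 148404466 to 148408188), for thrombomodulin, which turns thrombin toward protein C, stood at 26.4, 57.9 and 21.6 and at 261, 145, 178, 99.7 and 238. The lowest TAZ-CCl4 value, in replicate 4, was above the highest control, replicate 2 (2.40 ± 0.39; limma, adjusted p = 3.72e-04). F2r (chromosome 13, 95601803 to 95618487), for the thrombin receptor PAR1, stood at 1015, 775 and 676 and at 1853, 1514, 1855, 1222 and 1785. Per kilobase of transcript it had the highest mean of the 8 tissue genes in TAZ-CCl4 liver (493.4), and it was higher in all 5 than in any control (1.0 ± 0.18; limma, adjusted p = 7.43e-04).

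The inhibitors of the tissue factor pathway did not rise with F3 at the deposited scaling. Tfpi (chromosome 2, 84432855 to 84476775), for the inhibitor of the tissue factor and factor VIIa complex, stood at 88.0, 97.5 and 114 in control liver, against 84.1, 86.2, 119, 128 and 121 in TAZ-CCl4 liver. The groups overlapped, and the 95% interval of its log2 fold change was -0.40 to 0.59 as deposited, although it passed as higher at equal totals (1.33; limma, adjusted p = 4.10e-04) and as lower after quantile normalisation (-0.59; limma, adjusted p = 0.0382). Tfpi2 (chromosome 6, 3962595 to 3988919), for a related inhibitor of plasmin and other proteases, stood at 1581, 1586 and 1375 and at 129.9, 228, 348, 414 and 375. Per kilobase it had the highest control mean of the 8 tissue genes (989.7), and it was the only one of them that fell (-2.45 ± 0.33; limma, adjusted p = 1.20e-04). Within a library the ratio of Tfpi to F3 was 1.05 ± 0.135 in control liver (SD, n = 3) and 0.571 ± 0.195 in TAZ-CCl4 liver (SD, n = 5), with every TAZ-CCl4 library below every control.

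The 2 factors made mainly outside hepatocytes moved apart. F13a1 (chromosome 13, 36867178 to 37050244), for the catalytic subunit of factor XIII, which is known from macrophages and megakaryocytes, stood at 5.50, 0 and 5.41 in control liver, against 439.6, 279, 132, 127 and 141 in TAZ-CCl4 liver. All 5 were above the controls, replicates 1 and 2 most (log2 fold change 5.83 ± 0.66; limma, adjusted p = 3.47e-05). The size of this change rests on control values of a few reads: it was 4.93 without control replicate 2, which is listed at 0, and 3.95 with a pseudocount of 10. F8 (chromosome X, 75172715 to 75382615), for the cofactor missing in haemophilia A, which sinusoidal endothelial cells make in the liver, stood at 117, 147 and 149 and at 94.6, 49.0, 70.8, 107 and 94.8. Its groups did not overlap (-0.76 ± 0.27; limma, adjusted p = 0.0322), but the call was lost without control replicate 2, control replicate 3 or TAZ-CCl4 replicate 3 (adjusted p = 0.100, 0.105 and 0.0578 with limma) and at equal totals (0.48).

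**Figure D3:**
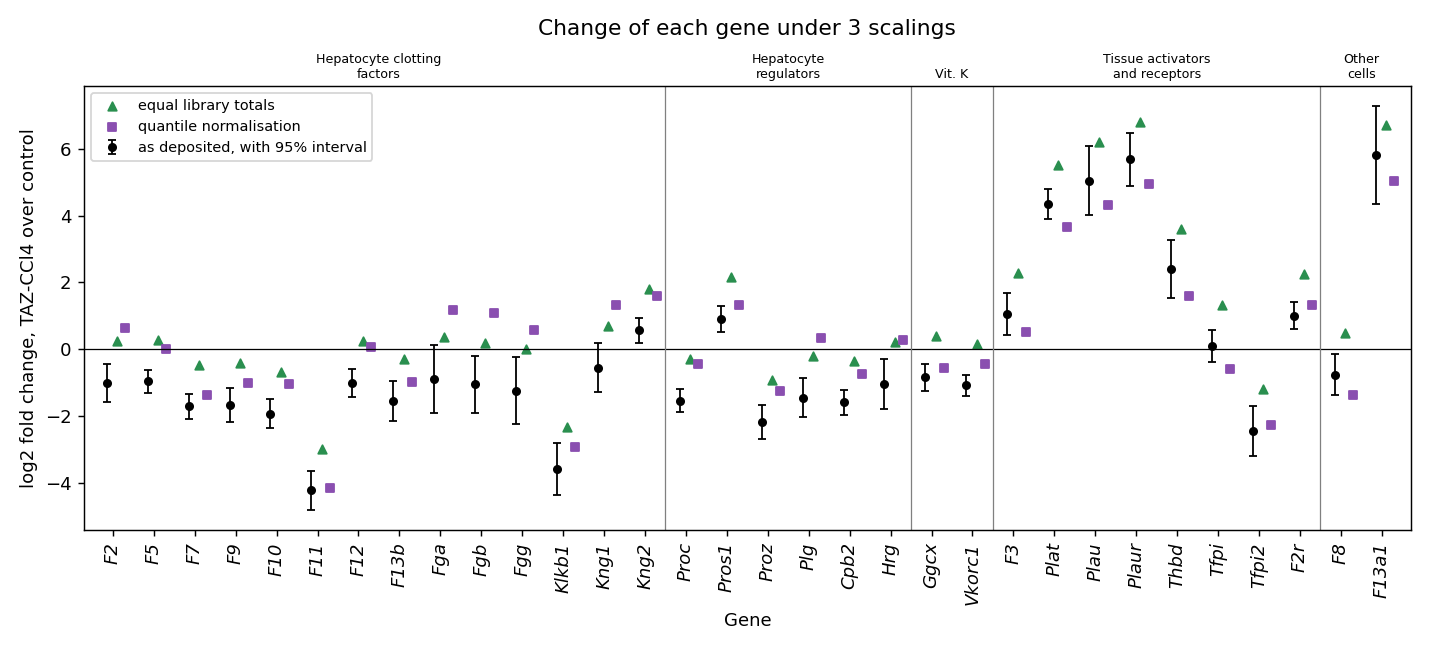
Log2 fold change of each of the 32 genes, TAZ-CCl4 over control (vertical axis), as deposited with its 95% interval (black), at equal library totals (green triangles) and after quantile normalisation (purple squares). F7, F9, F10, F11, F13b, Klkb1, Proc, Proz, Cpb2 and Tfpi2 stay below 0 in all 3. Plat, Plau, Plaur and F13a1 stay above 3 in all 3.

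Markers of other cell types moved beside the tissue genes, and their part in these results was not tested. The counts that follow are at the deposited scaling, where 32.4% of all tested genes were higher and 29.8% lower. Of 10 macrophage markers, 6 rose and 2 fell, and their summed level was 1475 to 2362 in the controls and 9584 to 17080 in the TAZ-CCl4 libraries. All 8 markers of continuous endothelium rose, with summed levels of 1147 to 1798 and 2873 to 4328. Of 10 sinusoidal endothelial markers, 2 rose and 6 fell, with overlapping sums of 2921 to 5295 and 3532 to 4260. The 2 that rose, Stab1 and Fcgr2b, made up most of the TAZ-CCl4 sums, so the overlap of the sums hides the 6 falls. At equal totals 4 of the 10 were higher and 0 lower, and after quantile normalisation 2 were higher and 7 lower. Among 10 markers of stellate cells and myofibroblasts, 6 rose and 0 fell (2343 to 3954 against 8386 to 15856). All 7 tested cholangiocyte markers, of 8 listed, rose (2299 to 2902 against 34936 to 121898). Platelet and megakaryocyte markers were low, at sums of 209.9 to 242 and 105 to 360.1, with 1 of 3 tested members higher and 1 lower. Of 10 neutrophil markers, 4 were tested and rose, at sums of 57 to 67.8 and 400.1 to 756, and 4 others (Ly6g, Ngp, Camp and Mpo) were at 0 in all controls. Among 8 lymphocyte markers, 3 rose and 0 fell, with sums of 120.1 to 193 and 149 to 297, but 1 was higher and 2 were lower after quantile normalisation. Higher calls outnumbered lower ones at equal totals and after quantile normalisation too for the macrophage, continuous endothelial, stellate, cholangiocyte and neutrophil lists. Among all tested genes they also did so at equal totals (76.3% higher, 6.39% lower), but not after quantile normalisation (27.8% and 29.8%). Except for 1 hepatocyte marker symbol that was not found, each listed marker was in the table, and 0 of the macrophage, endothelial and stellate markers were at 0 in all controls.

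Ratios of paired genes within each library, taken after adding 1, are nearly free of any scaling factor of the library. This does not hold where a gene is near 0. Of 12 functional pairs, 5 had TAZ-CCl4 ratios above every control, 2 had them below and 5 overlapped. For Plau to Plg, Thbd to Proc, F3 to F7, F13a1 to F13b and Cpb2 to Plat, both genes had separated in opposite directions. The separation of these ratios therefore follows from the single genes and adds nothing to them. Other pairs of genes were not counted for comparison. Plau to Plg, the cell-surface activator to its substrate, moved by 6.51 on the log2 scale, from 0.000124, 0.00023 and 0.000367 in the controls to 0.0277, 0.00538, 0.0193, 0.0407 and 0.0271 in the TAZ-CCl4 libraries. Replicate 2 had the lowest TAZ-CCl4 ratio and replicate 4 the highest. Without the added 1, the log2 difference of Plau to Plg was 6.65. Cpb2 to Plat, an inhibitor of fibrinolysis to an activator, went from 461, 451 and 531 to 10.7, 10.6, 7.18, 6.51 and 5.52, a log2 difference of -5.94. Thbd to Proc, a surface cofactor to the protease it activates, had a log2 difference of 3.94, and F3 to F7, the starting complex, one of 2.77. F13a1 to F13b, the subunits of factor XIII, went from 0.00221, 0.000284 and 0.00197 to 0.430, 0.378, 0.0749, 0.155 and 0.0962. F13a1 was listed at 0 in control replicate 2, so the ratio there is set by the added 1. The groups overlapped for Plat to Plau, which had a log2 difference of -0.71, Plaur to Plau one of 0.63 and Ggcx to Vkorc1 one of 0.24. Pairs within 1 role differed among themselves: Kng2 to Kng1 (1.13) and Tfpi to F3 (-0.96) did not overlap between the groups.

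**Figure D4:**
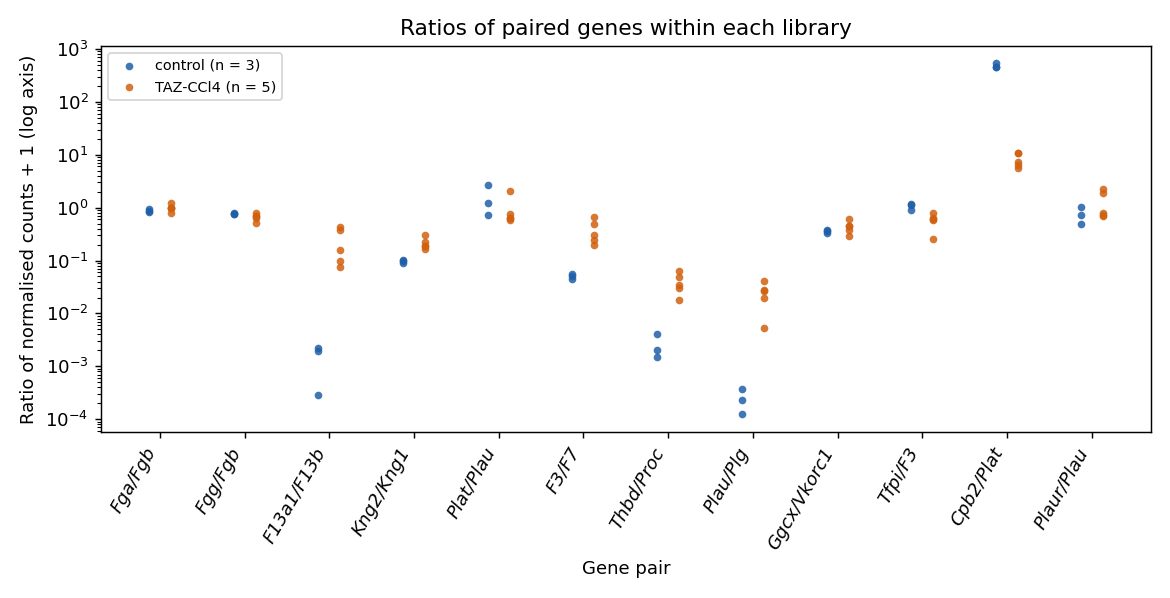
Ratio of normalised counts plus 1 (vertical log axis) for 12 gene pairs (horizontal axis) in 3 control (blue) and 5 TAZ-CCl4 (orange) libraries, each point 1 library. Plau/Plg, Thbd/Proc, F13a1/F13b, F3/F7 and Kng2/Kng1 are higher in orange, Cpb2/Plat and Tfpi/F3 lower, and the other 5 overlap.

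The contrast between the role groups was read in each library. The mean log2 level of the 20 hepatocyte factors exceeded that of the 8 tissue genes by 7.55, 7.34 and 7.41 in control replicates 1 to 3. In TAZ-CCl4 replicates 1 to 5 the excess was 3.62, 4.63, 4.11, 3.40 and 3.71, so each TAZ-CCl4 library lay below each control. Leaving out Tfpi2, the only tissue gene that fell, gave a control mean of 8.06 ± 0.128 (SD, n = 3) and a TAZ-CCl4 mean of 3.87 ± 0.509 (SD, n = 5). Tfpi2 was picked for its direction, and Kng2 and Pros1, which rose, were kept. The difference between the groups thereby widened from -3.54 to -4.20. The lists were set by known roles and with earlier results of these data known, so these differences are descriptions without a test. In log2 fold changes, the median of the tissue genes exceeded that of the hepatocyte factors by 3.08 as deposited, 3.06 at equal totals and 1.43 after quantile normalisation.

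Hepatocyte factors varied more among the TAZ-CCl4 libraries, as did the tested genes at large. Their coefficient of variation was larger there than in the controls for 20 of 20 genes, with medians of 27.9% and 5.37%. Over all tested genes with a value in both groups the medians were 21.8% and 12.99%, and the TAZ-CCl4 value was the larger for 71.4%. TAZ-CCl4 replicate 4 had the lowest value of its group for 13 of the 20 and replicate 2 the highest for 11. Summed over the 20 genes, the levels were 272621, 402658, 306734, 135082 and 249443 in TAZ-CCl4 replicates 1 to 5, against 513812 to 535299 in the controls. Replicate 4 had the lowest summed hepatocyte markers of the TAZ-CCl4 libraries, 1030040 against 1107220 to 1580830, and the highest summed cholangiocyte markers, 121898 against 34936 to 55504. Their part in its low values was not tested. Yet Klkb1 and F9 were highest in replicate 4, at 302 to 1245 and 819 to 1835 over the group. Tissue genes had median coefficients of variation of 37.0% in the TAZ-CCl4 libraries and 16.4% in the controls, larger in the TAZ-CCl4 group for 5 of 8.

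Other genes of the pathway, listed by function beside the 32, also moved both ways. Of 47 listed, 36 were tested, with 14 called higher, 15 lower and 7 neither way and a median log2 fold change of -0.18. At equal totals 22 were higher and 3 lower (median 1.06), and after quantile normalisation 16 were higher and 5 lower (median 0.40). Among all tested genes, 32.4% were higher and 29.8% lower as deposited, 76.3% and 6.39% at equal totals, and 27.8% and 29.8% after quantile normalisation. The counts by function that follow are as deposited. Among 10 tested receptors and binding proteins, 7 rose and 2 fell. Itgam, for a leukocyte integrin chain that binds fibrinogen, rose from 21.7 ± 2.34 to 638 ± 168 (SD, n = 3 and 5; log2 fold change 4.79 ± 0.21), and Lrp1, for a clearance receptor of protease complexes, fell from 15184 ± 937 to 7736 ± 1420.5 (-0.99 ± 0.17, and 0.26 at equal totals). Of 14 processing enzymes, secretion genes and related plasma proteins, 3 rose and 8 fell, whereas 8 were higher and 2 lower at equal totals. A2m, for a broad protease inhibitor, rose by 5.75 ± 0.63 on the log2 scale from control values of 0 to 4.79, and Hgfac, for the activator of hepatocyte growth factor, fell (-2.34 ± 0.26). Among 5 tested von Willebrand factor and platelet genes, 2 rose and 2 fell, with Pf4, a platelet chemokine gene, at 3.34 and Itga2b, for the platelet integrin chain, at -1.06 and at 0.18 with equal totals. Of 7 tested serpins of the pathway, 2 rose and 3 fell, whereas 4 were higher and 1 lower at equal totals. Serpinc1, for antithrombin, fell from between 46845 and 51032 to between 10278 and 17283 (-1.85 ± 0.22, and -0.15 without a call after quantile normalisation). Of 12 hepatocyte transcription factor genes, 8 fell and 0 rose, among them Nr1i3, for the receptor CAR, from between 5569.9 and 9111 to between 20.1 and 271. At equal totals 1 of the 12 was lower and 5 were higher, beside 6.39% and 76.3% of all tested genes. After quantile normalisation 5 were lower and 1 was higher, beside 29.8% and 27.8%.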

How the data were processed

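Poly-A RNA of liver pieces was read from both ends on a NovaSeq instrument, per the labels' protocols, which name 2 RNA kits without saying which sample had which. Values are a normalised count signal for each gene in the deposited table, which by its title was made by the authors with kallisto and DESeq2; build mm10 and DESeq2 are also named, per the submitters' processing notes. The sources used here give no versions and no filters. Of the values below 10, 52.8% to 66.8% per library came within 0.03 of a whole multiple of the commonest step, too few to recover reads, so count models were not fitted. No 2 libraries agreed within counting noise; p-values measure the spread between libraries, which may be technical.

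Groups of 3 and 5 libraries were compared with limma 3.58.1 (R 4.3.3), with a trended prior, on log2(value + 1) over 14171 genes with a mean of at least 10, Benjamini-Hochberg adjusted at 0.05. The test was checked on simulated data. Positions and lengths are from GENCODE M21 (mm10), which held all 32 genes. Members and lists were chosen with earlier results of these data known. All members are named; from each other list the called genes with the largest rise and fall and a higher mean of at least 50. A gene that this rule names is not reported here. Alternatives were scaling, pseudocount, low-value filter, prior, replicate block and leaving out each library. Ratios were tried without a pseudocount.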

Additional observations from a re-analysis of the deposited data

Results flagged for a closer look

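In the set, 2 values stood far from the rest of their group of 5 libraries, judged by the gap to the nearest library divided by the range of the group, with 0.71 as the limit. F10 was 1629 in TAZ-CCl4 replicate 4 and 2637 to 2982 in the other 4, a ratio of 0.745. Plaur was 963 in TAZ-CCl4 replicate 1 and 286 to 401 in the others, a ratio of 0.831, and its mean was 362 without that library. The 32 genes were checked in this way, and chance flags about 1 in 20.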

How the results depend on the processing

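The calls for hepatocyte factors depend on the scaling. As deposited, 20 of the 32 genes were lower, beside 4230 of all 14171 tested genes. The number was 6 at equal totals, beside 906 of all tested genes. It was 11 at equal totals with Mup and mitochondrial genes left out, beside 1512. After quantile normalisation it was 13, beside 4227, and at equal upper quartiles 17, beside 3107. The number of higher genes was 9 as deposited, 10 at equal totals and 12 after quantile normalisation. Among all tested genes 4592, 10810 and 3941 were higher at these 3 settings. The median of the tissue genes minus that of the hepatocyte factors was 3.08 log2 units as deposited, 3.06 at equal totals and 1.43 after quantile normalisation. Leaving out 1 library at a time gave 16 to 21 lower genes, 8 to 9 higher genes and a difference of 2.94 to 3.27. Among all tested genes, 3600 to 4269 were then lower and 4015 to 4586 higher. At equal totals the sign turned for F2 (0.24), F5 (0.28), F12 (0.24), Fga (0.36), Fgb (0.19), Fgg (0.0014), Kng1 (0.69), Hrg (0.21), Ggcx (0.40), Vkorc1 (0.16) and F8 (0.48). At equal totals with Mup and mitochondrial genes left out it turned for Kng1 (0.27) and F8 (0.061). After quantile normalisation it turned for F2 (0.63), F12 (0.070), Fga (1.16), Fgb (1.09), Fgg (0.58), Kng1 (1.33), Plg (0.33), Hrg (0.29) and Tfpi (-0.59), and of these F2, Fga, Fgb and Kng1 were called as higher and Tfpi as lower. The scaling of the libraries is what these settings change; why the totals differ was not tested. Filters, priors and pseudocounts changed no member's direction, and without a filter only Fgb and Fgg lost their calls. With the replicate number as a block (replicate block), Tfpi was at -0.061 and Fgb, Fgg and Hrg lost their calls, with 17 genes lower and 9 higher. Same-numbered libraries shared only a number, since their deviations correlated at -0.07, -0.06 and -0.09. Of 32 genes, 13 kept direction and call under all 19 alternatives. This was not counted over all tested genes, so it does not show whether the set was more or less stable than they were. Depth limits F13a1, Plaur, Plau and Plat in the controls, where they stood at a few to about 20 normalised counts.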
